A study of Mus musculus with 12 samples.

Results

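The complement genes described here are 9 components and receptors of the complement system, C1qa, C1qb, C1qc, C3, C4b, Cfb, Serping1, C3ar1 and C5ar1, listed by gene symbol, with earlier results of these data known, and with no threshold on measured values. A probe set, the group of array probes that reads 1 gene, carried the symbol of 8 of them, 1 probe set each, among 19572 named probe sets of 22206 in all. C3 was not analysed here. Expression was measured in 12 murine neuroblastoma tumors, raised from inoculated tumor cells in mice of the inbred A/J strain, with 1 Affymetrix Mouse Clariom S array per tumor. High intensity focused ultrasound (HIFU), which the design text describes as mechanical fractionation, had been given to 9 tumors, with 3 labelled 24 h, 3 labelled 48 h and 3 labelled 72 h, and 3 tumors were untreated controls. The labels do not settle whether the times are hours between HIFU and sampling, as they are read here, and they name neither the cell line nor the number of animals. If tumors of a group shared an animal, the p-values would measure only the spread between these samples. Values are log2 signals, and differences are HIFU minus control on that log2 scale.

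Complement is a cascade of plasma and tissue proteins that marks surfaces for clearance and releases small peptides that attract and activate myeloid cells. The classical pathway starts when C1q, built from the A, B and C chains, binds antibody or dying cells and its proteases cleave C4 and C2, whereas the alternative pathway amplifies C3 cleavage with factor B. The liver makes most plasma complement, but C1q comes mainly from macrophages and dendritic cells, and the C3a and C5a receptors sit mainly on myeloid cells. A/J is known as a strain that lacks functional C5, the source of the C5a peptide, so C5ar1 transcripts here were measured in hosts without its main ligand. Tumors are mixed tissue, and in such bulk samples fewer cells of a type and less RNA per cell cannot be told apart.

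The promoters of members with an entry are shown first because the results below turn on these members, a C1q pair that varied together and both peptide receptors. RefSeq windows of GRCm38.p6, from 250 bases before to 50 after the gene start, were held for 5 of the 9 members, C3 among them. C1qa, C4b, Cfb and Serping1 had no entry. Each is printed 5′ to 3′ on the gene's strand, which is the minus strand for all 4, and capitals mark a searched motif.
C1qb, chr4:136886151-136886450: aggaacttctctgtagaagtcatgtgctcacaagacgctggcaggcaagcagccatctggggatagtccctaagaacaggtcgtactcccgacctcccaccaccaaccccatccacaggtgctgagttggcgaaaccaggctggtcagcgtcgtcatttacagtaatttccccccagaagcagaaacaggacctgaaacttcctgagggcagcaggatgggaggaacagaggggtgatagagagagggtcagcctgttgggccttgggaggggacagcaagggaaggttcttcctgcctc
C1qc, chr4:136892865-136893164: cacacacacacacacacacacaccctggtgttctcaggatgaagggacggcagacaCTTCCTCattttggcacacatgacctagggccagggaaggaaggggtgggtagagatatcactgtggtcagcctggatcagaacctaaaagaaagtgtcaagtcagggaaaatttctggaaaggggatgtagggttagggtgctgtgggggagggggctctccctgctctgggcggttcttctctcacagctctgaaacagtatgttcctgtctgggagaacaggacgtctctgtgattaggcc
C3ar1, chr6:122856108-122856407: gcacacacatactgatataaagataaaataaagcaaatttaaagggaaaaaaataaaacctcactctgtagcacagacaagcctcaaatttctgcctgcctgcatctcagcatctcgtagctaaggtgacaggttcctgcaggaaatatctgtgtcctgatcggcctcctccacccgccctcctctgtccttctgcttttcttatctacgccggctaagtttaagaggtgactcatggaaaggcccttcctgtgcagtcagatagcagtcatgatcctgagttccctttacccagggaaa
C5ar1, chr7:16259289-16259588: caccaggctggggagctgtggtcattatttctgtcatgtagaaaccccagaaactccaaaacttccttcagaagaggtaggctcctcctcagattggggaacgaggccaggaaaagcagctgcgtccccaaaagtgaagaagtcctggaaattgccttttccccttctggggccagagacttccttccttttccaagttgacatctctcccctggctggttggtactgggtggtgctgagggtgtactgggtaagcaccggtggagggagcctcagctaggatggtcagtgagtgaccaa
The motifs searched on both strands were GAGGAAG, the core bound by the myeloid factor PU.1 and other ETS proteins, TTCNNNGAA, the interferon-gamma-activated STAT site, and the core of the interferon-stimulated response element. C1qc held 1 match, to the ETS core on the opposite strand, and 13.6% of all 32851 promoter windows held that motif. The STAT letters were in 8.3% of all windows and the interferon response letters in 3.44%, and neither was found in these 4. A missing match says only that these letters are not in this window.

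The arrays were alike in overall signal, with medians from 5.43 to 5.68, the highest in HIFU_72h replicate 2. Arrays of a group correlated across probe sets with r from 0.951 to 0.993 and arrays of different groups from 0.915 to 0.988. The lowest r of either kind was of a pair with HIFU_72h replicate 2. All 9 measured neuroblast markers exceeded the array's median signal on at least 1 array, and of 13 macrophage markers 1, Cx3cr1, did not. Of 11 hepatocyte genes, 10 lay below the median probe set on every array, Alb included, and the log2 of their summed signal ran from 6.99 to 7.52 in HIFU tumors and from 7.17 to 7.32 in controls. Skeletal muscle genes differed with HIFU by estimate, with 0 of 18 past the threshold. Relative to the control mean their median lay between 2.2 and 5.82 in the 9 HIFU tumors and between -1.58 and 2.2 in the 3 controls, and all 18 members were higher in the mean of the HIFU groups. The part of muscle in the members' differences was not tested beyond a fit with that median as a covariate. In that fit the 72 h estimates of 7 of 8 members were below 0, from -1.39 ± 1.59 (SE) for C3ar1 to -0.002 ± 0.885 for Serping1. The muscle medians of HIFU tumors and controls met only at 2.2, so this fit cannot separate muscle content from HIFU.

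None of the 8 measured members differed from control past the threshold at any time (limma, adjusted p over all 22206 probe sets under 0.05). The background was low too, with 0.054% of probe sets called at 24 h, 0.0045% at 48 h, 0.00901% at 72 h and 0.018% for the mean of the 3 HIFU groups. At an unadjusted p under 0.05 the members held 0 at 24 h and 0 at 48 h, where 9.84% and 13.3% of all probe sets passed, and 2 at 72 h, Serping1 and C5ar1, both higher, against 5.85% of all probe sets that were higher by that measure at 72 h. The estimates were lower for 6 of 8 members at 24 h, with a median difference of -0.40, where 50.2% of all probe sets were higher, and higher for 8 of 8 at 72 h, with a median of 0.98, where 43.5% were. Without HIFU_72h replicate 2 the 72 h estimates were below 0 for 5 of 8, at -0.21 for C1qa, -0.36 for C1qb, -0.17 for C1qc, -0.12 for C4b and -0.28 for C3ar1, and above 0 for Cfb at 0.32, Serping1 at 1.25 and C5ar1 at 1.08. At 48 h 4 were higher and 4 lower, with a median of 0.22, where 51% of probe sets were higher. Over all probe sets the median differences were 0, 0.01 and -0.06 at the 3 times. A test of the 3 HIFU times against each other called 0 members and 0% of probe sets (limma F test, 5.16% at an unadjusted p under 0.05), so no change with time was shown.

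The classical pathway trigger C1q was not shown to differ from control, and its chains spread widely between tumors of a group. C1qa, the A chain, had log2 signals of 8.73, 6.47 and 8.14 at 24 h, 7.62, 9.98 and 7.44 at 48 h and 7.81, 10.46 and 8.83 at 72 h, against 9.18, 8.08 and 8.33 in controls. HIFU tumors lay both above and below all 3 controls at every time except 24 h, where none was above. The differences were -0.75 ± 0.82 (SE), -0.18 ± 0.82 and 0.50 ± 0.82 at 24, 48 and 72 h, with adjusted p of 0.796, 0.945 and 0.883 (limma).

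C1qb, the B chain, had 9.5, 7.16 and 9.40 at 24 h, 6.62, 10.63 and 7.89 at 48 h and 9.39, 11.38 and 9.72 at 72 h, against 11.06, 8.73 and 9.97 in controls. Its lowest tumor was HIFU_48h replicate 1, where the chain was below every control, and its highest HIFU_72h replicate 2. The C1qb differences of -1.23 ± 1.01, -1.54 ± 1.01 and 0.24 ± 1.01 had 95% intervals of -3.45 to 0.98, -3.75 to 0.67 and -1.97 to 2.46. C1qc, the C chain, had 8.67, 6.83 and 9.03 at 24 h, 7.06, 10.68 and 7.51 at 48 h and 8.84, 10.84 and 9.04 at 72 h, against 10.28, 8.09 and 8.96 in controls. The groups overlapped at each time, with differences of -0.93 ± 0.97, -0.69 ± 0.97 and 0.46 ± 0.97.

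The 3 chains varied together from tumor to tumor. C1qb, C1qc and C1qa lie next to one another in that order on chromosome 4 and are known to be expressed jointly in macrophages. Over the 12 arrays C1qb and C1qc correlated with Pearson r = 0.966 and Spearman rho = 0.937 (permutation p = 1e-05, the smallest the resamples can give, and p = 5e-05; adjusted p of r = 5.6e-05). The r was 0.963 without the 2 arrays farthest from the median. C1qa correlated with C1qc at r = 0.931 and with C1qb at r = 0.873. All 28 pairs of the 8 members were computed, with r from 0.523 to 0.971 and a median of 0.831, and 26 passed an adjusted p of 0.05 by permutation. The weakest was C1qb with C4b and the strongest C1qa with Cfb. Without the 2 farthest arrays the r of the 28 pairs lay between 0.305 and 0.963. These correlations cover all groups at once, and the arrays share the group structure and the tissue mixture. How many pairs of other genes would pass was not computed, so the count is not shown to be particular to complement. HIFU_72h replicate 2 was the highest array for 8 of 8 members. Genes outside complement correlated with members as strongly, such as Sln with C5ar1 at r = 0.977.

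C4b and Cfb, which supply the early convertase enzymes, were likewise not shown to differ from control. C4b encodes the mouse C4 of the classical and lectin pathways and Cfb the factor B of the alternative pathway, and both lie on chromosome 17. C4b had 7.81, 5.71 and 6.85 at 24 h, 7.69, 8.41 and 6.78 at 48 h and 6.16, 9.44 and 7.42 at 72 h, against 7.51, 7.01 and 6.20 in controls. HIFU tumors lay on both sides of the controls at 24 and 72 h, and the lowest HIFU_48h tumor was inside the control range. Differences were -0.12 ± 0.78, 0.72 ± 0.78 and 0.77 ± 0.78 (adjusted p = 0.975, 0.721 and 0.786, limma). C4b has a near-identical copy, C4a, and probes may read both, so the C4b value is uncertain.

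Cfb had 6.21, 3.69 and 5.32 at 24 h, 5.16, 7.64 and 4.79 at 48 h and 5.19, 8.35 and 6.24 at 72 h, against 6.14, 5.06 and 4.99 in controls. Its highest HIFU_72h tumor was replicate 2, while replicate 1 lay within the control range and replicate 3 just above it. The differences were -0.32 ± 0.92, 0.47 ± 0.92 and 1.20 ± 0.92 (adjusted p = 0.931, 0.864 and 0.681, limma). C4b, Cfb and Serping1 are known as interferon-gamma-inducible genes, and the 14 measured interferon-gamma-induced genes had medians relative to control between -3.43 and -2.81 at 24 h, against -0.63 to 0.9 in controls. The mean of the 3 complement genes was not shown to follow that list over the 12 arrays (r = 0.321, permutation p = 0.311; rho = 0.224, permutation p = 0.483). Without the 2 farthest arrays r was 0.033, and for deviations from the group means it was 0.601.

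Serping1, the C1 inhibitor that shuts off the classical and lectin proteases, had estimates above control at all 3 times. It had 12.42, 10.01 and 11.74 at 24 h, 9.73, 12.67 and 10.87 at 48 h and 10.79, 13.90 and 12.56 at 72 h, against 10.63, 9.61 and 11.04 in controls. At each time at least 1 HIFU tumor lay within the control range. The difference at 72 h was 1.99 ± 0.90 with a 95% interval of 0.01 to 3.97 and did not pass (adjusted p = 0.442, limma). With the muscle covariate it was -0.002 ± 0.885. The differences at 24 and 48 h were 0.96 ± 0.90 and 0.66 ± 0.90. They were -0.96 ± 0.872 and -1.23 ± 0.865 with that covariate.

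C3ar1, the receptor of the C3a peptide, varied most of all members, over 6.74 log2 units across the 12 arrays. It had 9.0, 6.23 and 9.22 at 24 h, 7.59, 11.40 and 6.83 at 48 h and 8.11, 12.97 and 8.59 at 72 h, against 9.82, 7.63 and 8.44 in controls. HIFU_72h replicate 2 and HIFU_48h replicate 2 stood above all controls, and HIFU_24h replicate 2 was the lowest array. The differences were -0.48 ± 1.43, -0.02 ± 1.43 and 1.26 ± 1.43 (adjusted p = 0.933, 0.997 and 0.813, limma).

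C5ar1, the C5a receptor of neutrophils and monocytes, was the 1 member whose 3 arrays at a time all lay on one side of the controls. It had 6.42, 5.90 and 7.34 at 24 h, 6.05, 7.58 and 5.76 at 48 h and 6.74, 8.85 and 6.99 at 72 h, against 5.77, 5.62 and 5.95 in controls. The 3 HIFU_72h arrays were above all controls, as were those of 8.99% of all probe sets at that time. The difference at 72 h, 1.75 ± 0.60, had a 95% interval of 0.43 to 3.06 and did not pass (adjusted p = 0.344, limma). With the muscle covariate it was 0.65. With array weights it was 1.34 and passed (adjusted p = 0.0313, limma). That setting called 1846 of 22206 probe sets at 72 h, against 2 in the main fit. The other differences were 0.77 ± 0.60 at 24 h and 0.68 ± 0.60 at 48 h.

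Neutrophil genes were also higher at 72 h by estimate, with 0 of 11 past the threshold. Relative to the control mean, the median of 11 neutrophil markers lay between 5.72 and 9.73 at 72 h, against -0.11 to 0.27 in controls, and all 11 markers had their 3 HIFU_72h arrays above the controls. The log2 of their summed signal was 15.48 to 19.04 at 72 h and 7.51 to 8.11 in controls. C5ar1 and that median correlated over the 12 arrays at r = 0.736 (permutation p = 0.00628, adjusted p = 0.00942 over 3 pairs) and rho = 0.671 (permutation p = 0.0193). Without HIFU_72h replicates 1 and 2, the 2 arrays farthest from the median, r was 0.492, and for deviations from the group means it was 0.512. Without HIFU_72h replicate 2 alone r was 0.50 and the adjusted permutation p 0.177, so the relation to this median was not shown without that array. The neutrophil markers did not move as one. In HIFU_48h replicate 3, Mpo and Ngp were 10.49 and 13.25, and Csf3r and Cxcr2 7.06 and 6.43. In HIFU_48h replicate 2, Mpo and Ngp were 3.51 and 4.79, and Csf3r and Cxcr2 10.80 and 9.90. C5ar1 was 5.76 in the former and 7.58 in the latter. Its relation to single neutrophil markers was not tested. The part of neutrophil content in the C5ar1 level was not tested.

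**Figure D1:**
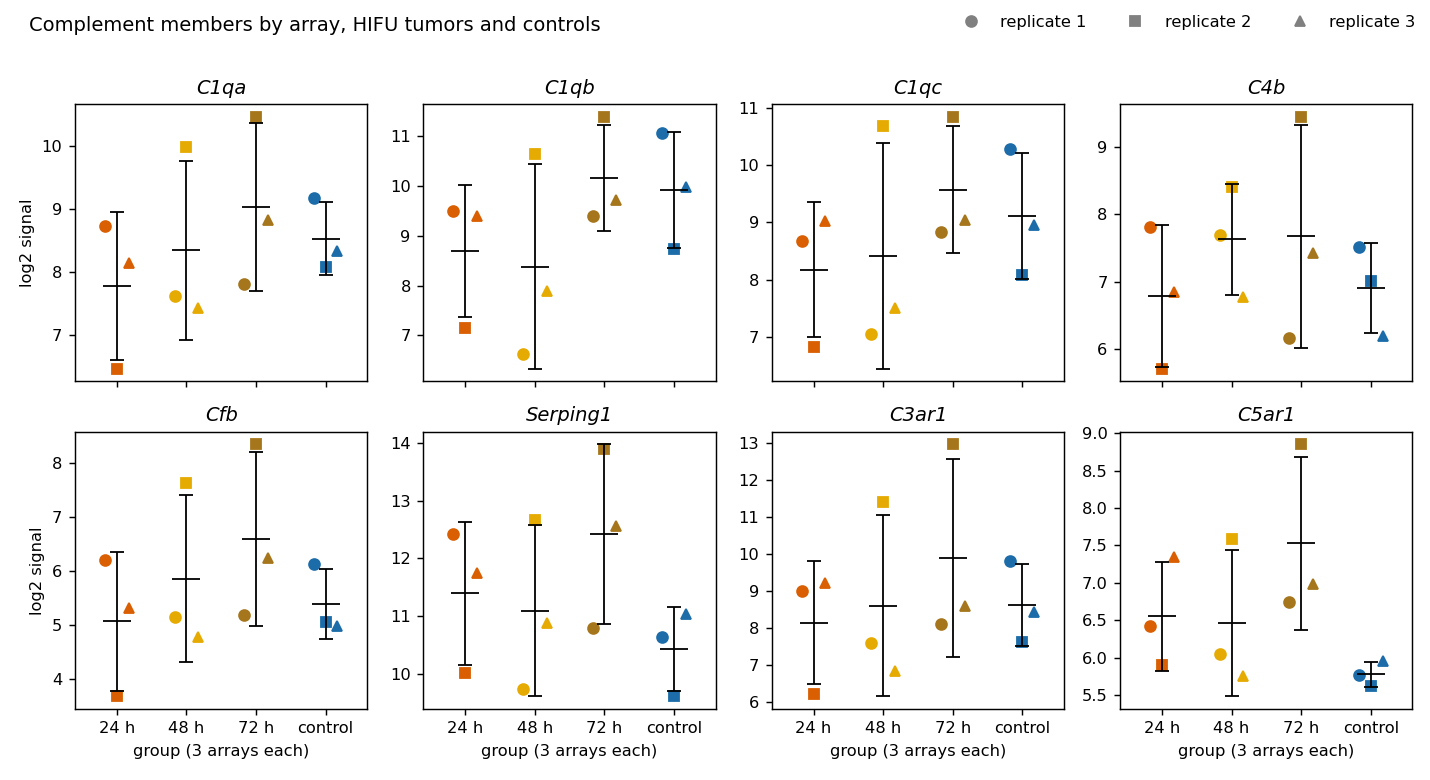
Log2 signal of the 8 measured members on each array, by group (24, 48 and 72 h after HIFU, then untreated controls), with symbols for the replicate number and black bars for the mean and SD (n = 3). Replicate 2 of HIFU_72h is the highest array in all 8 panels, and only the 72 h arrays of C5ar1, from 6.74 to 8.85, all lie above the controls.

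Most of the members' variation lay between tumors of the same group. HIFU_72h replicate 2 was the highest of the 12 arrays for 8 of 8 members, against 14.9% of all probe sets. HIFU_24h replicate 2 was the lowest for 5 of 8, against 8.31%. The 4 groups accounted for 12.8% of the variation of C3ar1 over the arrays and for 45% of that of C5ar1, with a median of 20.5% over the members and 30.6% over all probe sets. The range of each member over the arrays, from 3.23 for C5ar1 to 6.74 for C3ar1, exceeded the 1.41 of the median probe set. The tumors at either end also differed in the levels of cell type markers. In HIFU_72h replicate 2 the macrophage median stood 3.44 above the control mean and the fibroblast median 6.4 above it, while in HIFU_24h replicate 2 they stood at -1.39 and 0.22. The skeletal muscle median was 5.82 in the former and 2.26 in the latter, and the neutrophil median 9.73 and -0.05. The neuroblast median went the other way, at -1.32 and 1.39, within the control range of -1.48 to 1.44. The part of these cell types in the members' levels was not tested beyond the muscle covariate, the C5ar1 correlation above and the comparison with macrophage markers that follows.

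**Figure D2:**
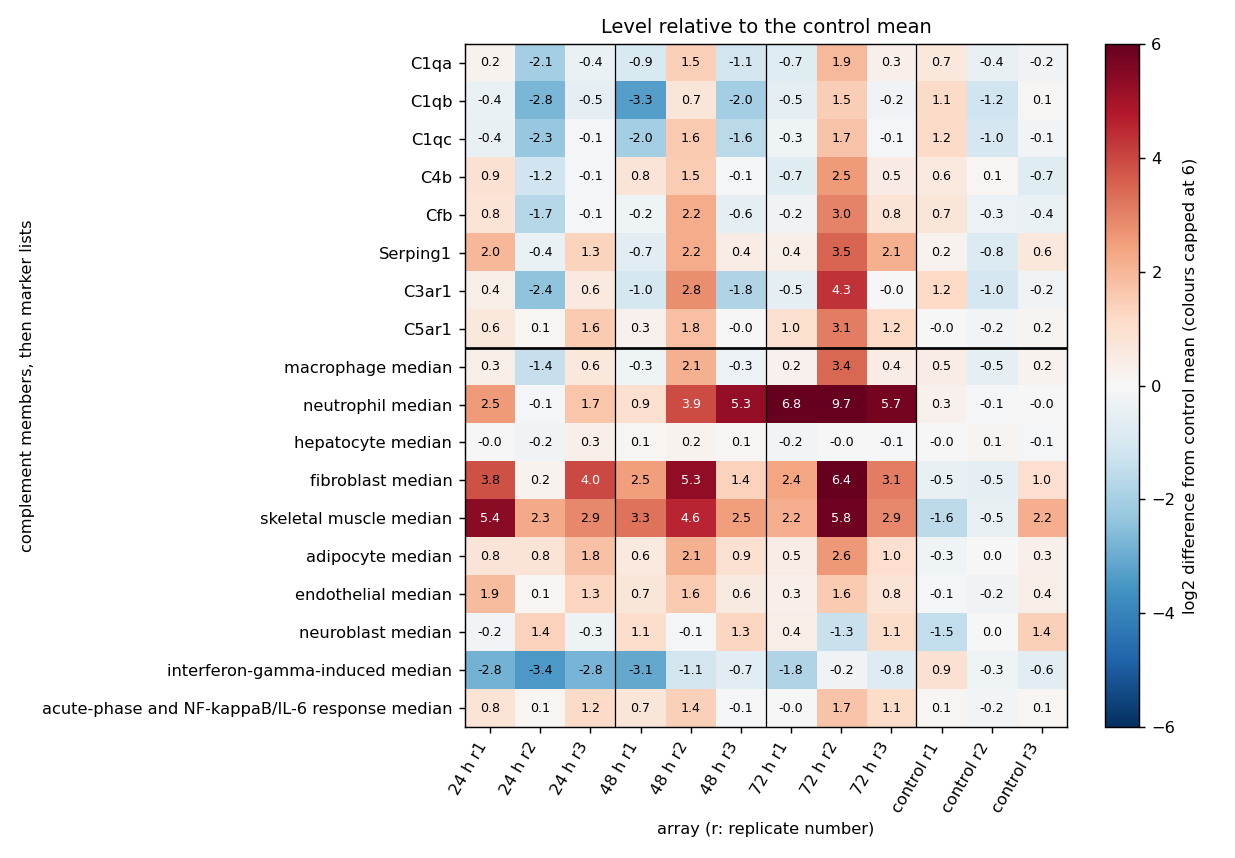
Log2 level of the 8 members (above the black line) and median of 10 marker lists (below it) on each of the 12 arrays, relative to the mean of the 3 controls, with columns ordered as 24, 48 and 72 h after HIFU and then controls. The C1q chains and C3ar1 follow the macrophage row, at 3.44 in 72 h replicate 2 and -1.39 in 24 h replicate 2, and the hepatocyte row stays between -0.21 and 0.29.

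The level of C1q was also set against that of macrophage markers in each tumor. The mean of C1qa, C1qb and C1qc followed the median of 13 macrophage markers over the 12 arrays (r = 0.87, permutation p = 5e-05, adjusted p = 0.00015; rho = 0.874, permutation p = 0.00041). The r was 0.826 without the 2 farthest arrays and 0.927 for deviations from the group means. The C1q mean minus that median, both relative to the control mean, was -0.57, -0.98 and -0.95 at 24 h, -1.82, -0.89 and -1.24 at 48 h and -0.76, -1.73 and -0.43 at 72 h, against 0.54, -0.36 and -0.32 in controls. All 9 HIFU tumors lay below all 3 controls, although HIFU_72h replicate 3 did so by a narrow margin.

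The difference was -0.79 at 24 h, -1.27 at 48 h and -0.93 at 72 h, each with an exact two-sided permutation p of 0.1, the smallest that 3 against 3 allows. For the 9 HIFU tumors against the 3 controls, a comparison added after these values were seen and so no independent evidence of the difference, the means were -1.04 ± 0.48 and -0.05 ± 0.51 (SD), a difference of -0.99 (exact two-sided permutation p = 0.00909). Without control replicate 1 the difference was -0.80 (exact permutation p = 0.0545), and with the mean of the markers in place of their median it was -1.51 (exact permutation p = 0.00455). The macrophage markers did not move as one. In the mean of the HIFU groups the scavenger receptor Cd163 differed by 4.11, the mannose receptor Mrc1 by 3.37 and lysozyme (Lyz2), which neutrophils also express, by 3.38, whereas Aif1, a calcium-binding protein of macrophages, differed by -1.0 and the chemokine receptor Cx3cr1 by -0.64. Ms4a7 had a mean of 8.76 in HIFU tumors and 9.02 in controls. The lowest C1q estimate in that comparison, -0.84 for C1qb, was above that of Aif1. Which markers stand for the C1q-producing cells therefore bears on the size of this difference and, against Aif1, on its sign.

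**Figure D3:**
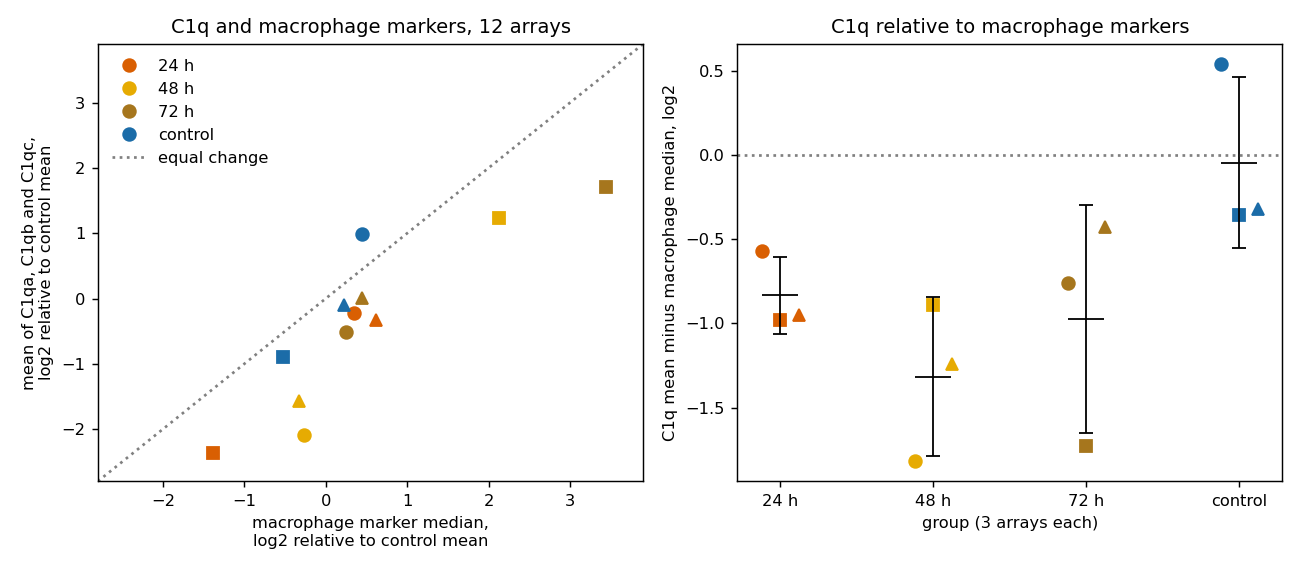
Left, mean of the 3 C1q chains against the median of 13 macrophage markers on each array, both as log2 relative to the control mean, with the dotted line marking equal change; right, their difference by group with the mean and SD (n = 3). Control replicate 1 is the 1 array above the line, at 0.54, and the 9 HIFU arrays lie from -1.82 to -0.43.

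The genes most like 3 of the members over the 12 arrays were named by Pearson correlation, as a description of arrays that share groups and tissue mixture. For C1qa they were Id2 (r = 0.984), Ms4a7 (0.978), Cfb (0.971), Slfn2 (0.967) and Ctsh (0.965). Ms4a7, which is among the macrophage markers, ordered the 12 arrays exactly as C1qa did (rho = 1). For Serping1 they were Mmp14 (0.962), Csf2rb (0.959), Trpc4ap (0.951), Pcyt1a (0.947) and Olfml2b (0.943). For C5ar1 they were Sln (0.977), Boc, Adam8, Nin and Lasp1 (0.968 each). Sln encodes a regulator of the muscle calcium pump, and Adam8 a metalloprotease of leukocytes.

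Of 45 other complement genes in the list, 43 were measured, and 0 passed the threshold in any comparison (limma). In the mean of the HIFU groups 31 were higher and 12 lower by estimate, with a median of 0.28 against -0.01 over all probe sets, of which 49.4% were higher. By unadjusted p under 0.05, 4 were higher and 2 lower, where 6.01% and 8.59% of all probe sets were. The genes named in the next paragraphs are those with the smallest unadjusted p of each role. With array weights, a setting that called 3787 of all 22206 probe sets, 9 of these 11 passed, C6 and C8a being the exceptions. Their adjusted p ran from 0.0021 for Cd55 to 0.0299 for C4bp (limma with array weights). The 11 were chosen by their p in this same comparison, so that count is no further evidence of a difference. How many of all 43 passed with weights was not computed.

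Of 7 membrane inhibitors 6 were higher by estimate, with a median of 0.66. Cd55, the decay-accelerating factor that dissociates the convertases, had 9.05, 7.34 and 8.33 at 24 h, 7.69, 9.81 and 7.52 at 48 h and 7.77, 11.01 and 8.35 at 72 h, against 5.34, 4.93 and 6.70 in controls. All 9 HIFU arrays of Cd55 lay above all 3 controls, as for 1.76% of probe sets. The difference was 2.88 ± 0.71 and did not pass (adjusted p = 0.139, limma). Its copy Cd55b, whose probes may share signal with Cd55, differed by 2.86 ± 0.85 (adjusted p = 0.186).

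Among receptors, 5 of 8 were higher and 3 lower, with a median of 0.40. Itgax, a chain of complement receptor 4, had 3.51, 3.71 and 3.41 at 24 h, 3.6, 3.87 and 3.61 at 48 h and 3.94, 4.43 and 4.25 at 72 h, against 5.5, 4.72 and 4.97 in controls. All 9 HIFU arrays lay below the controls, as for 1.65% of probe sets, and the difference was -1.25 ± 0.20 (adjusted p = 0.0705, limma), at a low signal. Without control replicate 3 it was -1.30 and without HIFU_24h replicate 2 -1.28, and both passed (adjusted p = 0.0243 and 0.0445), as it did with median centring (-1.34, adjusted p = 0.0466). Cd93, a surface lectin of endothelial and myeloid cells once thought to bind C1q, differed by 2.00 ± 0.96 (adjusted p = 0.365).

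In the classical and lectin pathway 8 of 14 genes were higher and 6 lower, with a median of 0.03. Masp2, a protease that cleaves C4 and C2 in the lectin pathway, had 7.88, 9.15 and 7.80 at 24 h, 7.49, 6.20 and 8.26 at 48 h and 8.18, 6.78 and 7.70 at 72 h, against 10.57, 10.40 and 7.64 in controls. Control replicate 3 lay among the HIFU tumors, and the difference of -1.82 ± 0.63 did not pass (adjusted p = 0.237, limma). Without control replicate 3 it was -2.77 and passed (adjusted p = 0.028), and with the muscle covariate it was 0.12. Fcna, a ficolin that starts the lectin pathway, differed by 1.43 ± 0.51 (adjusted p = 0.242).

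Properdin (Cfp), which steadies the alternative convertase and was the 1 measured gene of its role, differed by 1.41 ± 0.65 (adjusted p = 0.345, limma). With the muscle covariate the difference was -0.42. Its 3 HIFU_72h arrays, 11.03, 14.10 and 11.50, were above the controls, 9.68, 9.30 and 10.12, as were those of 8.99% of all probe sets. Of 7 terminal pathway genes 6 were higher, with a median of 0.15. C6 differed by 0.85 ± 0.50 (adjusted p = 0.467, limma) and C8a, the 1 lower gene, by -0.29 ± 0.21 (adjusted p = 0.563, limma). Hc, the C5 gene, which was chosen after its values were seen, had signals from 2.52 to 3.67 in HIFU tumors and from 2.02 to 3.16 in controls, at the low end of the signal range. Of 6 soluble inhibitors 5 were higher, with a median of 0.38. Clusterin (Clu), which blocks the membrane attack complex, differed by 1.12 ± 0.35 (adjusted p = 0.204) and C4bp, a cofactor for C4b breakdown, by 0.40 ± 0.21 (adjusted p = 0.4).

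**Figure D4:**
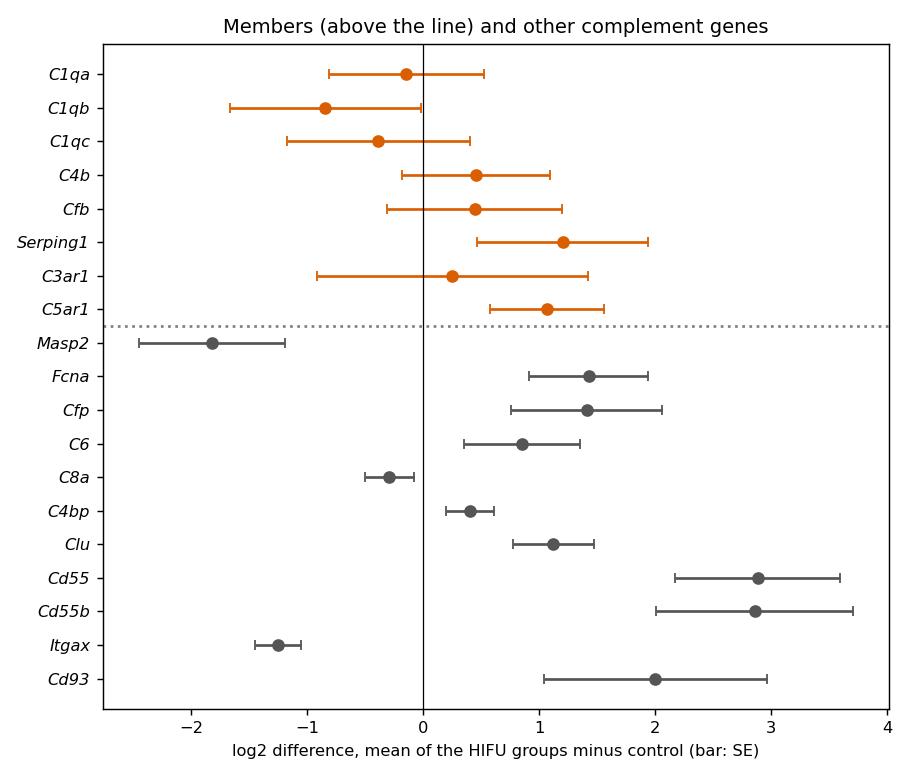
Log2 difference of the mean of the 3 HIFU groups minus control, with limma SE bars, for the 8 measured members (above the dotted line) and 11 other complement genes. Members run from -0.84 for C1qb to 1.21 for Serping1, and the other genes from -1.82 for Masp2 to 2.88 for Cd55.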

How the data were processed

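Total RNA of frozen tumor tissue was measured on 12 arrays, and groups were taken from the labels. The deposited values are log2 signals per probe set made by the authors with Transcriptome Analysis Console 4.0, per the submitters' processing notes. Their summarization and normalization were not given in the sources used here, and the log2 base was read from the range, 1.75 to 19.93. Probe sets were named from the platform annotation, 19572 with 1 symbol, 0 with several and 2634 with none. The highest-mean probe set stood for a gene.

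All 22206 probe sets were fitted in limma 3.58.1 (R 4.3.3) over the 4 groups with no block, and p-values were Benjamini-Hochberg adjusted over all of them. Single values were compared by exact permutation, and correlations by permutation. The number of arrays limits the precision. Other complement genes were named by the smallest unadjusted p of each role. Members and lists were chosen with earlier results of these data known. On simulated data for 24 h against control, with 200 of 22206 probe sets changed, the fit recovered 12% at a log2 change of 1, 72% at 2, 82% at 4 and 94% at 6. The changed probe sets were drawn at random from all, with independent noise. The members ranged over 3.23 to 6.74 log2 units, against 1.41 for the median probe set, so this recovery does not apply to them. The labels do not say whether replicate numbers pair samples, so the main fit used no pairing. Alternatives were normalization, filters, array weights, blocks, covariates and leaving out each array. C3 and Cfd were not analysed here, so a planned correlation of C3 with fibroblast markers was not run.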

Additional observations from a re-analysis of the deposited data

How the results depend on the processing

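Of 8 members, 0 were called in any comparison under every setting except array weights, which called C5ar1 at 72 h and in the mean of the HIFU groups (1 member each, 0.91 in the mean, adjusted p = 0.0468). Probe sets called at 24 h were 3 with the replicate block, 1118 with array weights and 0 with the muscle covariate, against 12; at 48 h 0, 944 and 0, and 6 with only the groups compared, against 1. At 72 h they were 1 with the block, 1846 with weights, 1 with the covariate, 1 with quantile normalization and 4 without the dimmest 25%, against 2. For the mean of the HIFU groups they were 1, 3787 and 1, then 15 without the dimmest 25%, 14 with median centring and 14 with an intensity trend and robust variance estimation together, against 4. Leaving out single arrays gave 0 to 253, 0 to 312, 1 to 194 and 1 to 398, the highest each time without control replicate 3, and 0 to 7 between times. Same-numbered samples of different groups had deviations correlating from -0.61 to 0.62, and differently numbered ones from -0.58 to 0.60. These ranges do not settle whether the numbers pair samples, so the block pairs nothing known. Reversed estimates under array weights at 24 h were C4b 0.15, Cfb 0.23 and C3ar1 0.28, and under quantile normalization at 48 h C3ar1 0.13. Under the muscle covariate they were Serping1 -0.96 and C5ar1 -0.29 at 24 h, and C4b -0.57, Cfb -1.20, Serping1 -1.23 and C5ar1 -0.36 at 48 h. At 72 h they were C1qa -1.05, C1qb -1.22, C1qc -0.84, C4b -0.59, Cfb -0.56, Serping1 -0.002 and C3ar1 -1.39. In the mean they were C4b -0.86, Cfb -1.26, Serping1 -0.73, C3ar1 -2.32, C5ar1 0.0, Masp2 0.12, Cfp -0.42, C6 -0.22 and Cd93 -0.67. Single arrays left out gave C4b -0.63 to 0.42, Cfb -0.89 to 0.37 and C3ar1 -1.01 to 0.48 at 24 h. At 48 h they gave C1qa -1.0 to 0.27, Cfb -0.42 to 1.00, Serping1 -0.13 to 1.34 and C3ar1 -1.42 to 0.86. At 72 h, each lowest value being without HIFU_72h replicate 2, they gave C1qa -0.21 to 1.11, C1qb -0.36 to 0.81, C1qc -0.17 to 1.05, C4b -0.12 to 1.52 and C3ar1 -0.28 to 2.15. In the mean they gave C1qa -0.42 to 0.18, C1qc -0.90 to 0.20 and C3ar1 -0.26 to 0.85. The C5ar1 correlation ran from 0.50 to 0.84, and the C1q difference of all HIFU tumors from -1.24 to -0.80. The causes were not tested.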
